A study of Mus musculus with 4 samples.

Results

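The OAS family was followed in cells of K7M2, a mouse osteosarcoma line that metastasises readily. The members were 8 genes, picked with earlier results of these arrays known: Oas1a, Oas1b, Oas1c, Oas1g, Oas2, Oas3, Oasl1 and Oasl2. Every probe set whose platform annotation named one of them was taken, which gave 7 probe sets, 1 each for 7 of the 8 genes, out of 18193 genes in all. Oas1g was named by no probe set used here. Because the family drew attention through its difference between the 2 groups, that difference is described for the members and not tested.

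One set of cells over-expressed ezrinT567A-GFP (3 arrays, replicates 1 to 3) and the control over-expressed GFP alone (1 array). Ezrin ties membrane proteins to cortical actin, and T567A names the form in which a regulatory threonine near the C terminus is replaced by alanine. All 4 samples were K7M2 cells that carried GFP, and all were grown in medium with serum. What drove the transgenes, whether the lines were clones or pools, and whether the replicates were separate cultures is stated by no label, so any p-value measures only the spread between these arrays. The array medians lay between 3.85 and 3.89 on the log2 scale, and the number of arrays limits the precision. The targeted gene gave no clear check of the labels: 1 Ezr probe set read 8.97, 8.94 and 8.81 in ezrinT567A-GFP replicates 1 to 3, against 8.90 in GFP, and the other, about as bright, read 9.08, 8.75 and 9.05 in ezrinT567A-GFP, against 8.63 in GFP (difference 0.33, all 3 arrays above GFP). No label says whether either probe set matches the transgene. Of the osteoblast markers, Col1a1, Col1a2 and Sparc were bright on all arrays (10.99 to 12.45), and Sp7 (5.05 to 5.41) lay above the array medians. Alpl (3.36 to 4.02) and Ibsp (2.74 to 2.88), markers of mineralising osteoblasts, lay near or below those medians.

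OAS enzymes are interferon-induced sensors of double-stranded RNA. On binding it they join ATP into short chains with an unusual linkage, the oligoadenylates, which set off the cutting of viral and cellular RNA. The mouse has a tandem array of Oas1 genes beside Oas2 and Oas3 on chromosome 5, and the OAS-like genes Oasl1 and Oasl2 lie elsewhere on the same chromosome. Type I interferon acts on these genes through a complex with STAT2 and IRF9 that binds the interferon-stimulated response element (ISRE) in promoters, and interferon gamma acts largely through the gamma-activated site (GAS).

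The promoter sequences are shown because the members differ in whether they carry such an element. RefSeq windows (GRCm38.p6, 250 bases before to 50 after the gene start) matched 6 of the 8 members, and Oas2 and Oas1b were not among them. The ISRE core was searched as a pair of GAAA half-sites with 2 bases between them, GAAANNGAAA, and GAS as TTCNNNGAA, where N is any base, on both strands, and overlapping matches were allowed. In the sequences, capitals mark matches to the ISRE core. The windows run 5′ to 3′ on the gene's strand: chr5:120777610-120777909 for Oas3 (minus strand), chr5:120907476-120907775 for Oas1a (minus), chr5:120812465-120812764 for Oas1c (minus), chr5:114922990-114923289 for Oasl1 (plus) and chr5:114896684-114896983 for Oasl2 (plus).
Oas3: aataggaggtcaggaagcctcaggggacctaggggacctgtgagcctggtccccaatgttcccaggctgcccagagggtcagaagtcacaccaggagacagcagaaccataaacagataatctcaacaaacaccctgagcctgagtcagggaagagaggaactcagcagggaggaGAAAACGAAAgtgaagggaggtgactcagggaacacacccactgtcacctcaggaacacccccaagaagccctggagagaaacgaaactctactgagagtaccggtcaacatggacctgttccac
Oas1a: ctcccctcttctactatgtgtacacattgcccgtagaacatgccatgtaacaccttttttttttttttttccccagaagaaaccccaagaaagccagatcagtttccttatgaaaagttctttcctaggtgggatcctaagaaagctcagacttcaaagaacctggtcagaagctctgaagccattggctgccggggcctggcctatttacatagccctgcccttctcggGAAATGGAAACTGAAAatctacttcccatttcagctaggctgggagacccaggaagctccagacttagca
Oas1c: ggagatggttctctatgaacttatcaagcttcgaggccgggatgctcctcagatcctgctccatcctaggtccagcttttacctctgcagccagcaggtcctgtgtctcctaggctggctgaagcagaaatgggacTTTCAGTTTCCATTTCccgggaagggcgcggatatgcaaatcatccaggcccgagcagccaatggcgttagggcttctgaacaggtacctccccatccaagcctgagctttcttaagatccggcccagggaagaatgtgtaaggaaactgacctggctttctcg
Oasl1: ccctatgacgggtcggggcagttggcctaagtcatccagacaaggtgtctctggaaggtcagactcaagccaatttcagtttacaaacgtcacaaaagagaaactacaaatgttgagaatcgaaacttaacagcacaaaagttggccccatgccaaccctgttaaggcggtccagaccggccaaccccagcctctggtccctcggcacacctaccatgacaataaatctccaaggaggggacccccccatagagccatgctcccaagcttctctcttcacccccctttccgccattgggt
Oasl2: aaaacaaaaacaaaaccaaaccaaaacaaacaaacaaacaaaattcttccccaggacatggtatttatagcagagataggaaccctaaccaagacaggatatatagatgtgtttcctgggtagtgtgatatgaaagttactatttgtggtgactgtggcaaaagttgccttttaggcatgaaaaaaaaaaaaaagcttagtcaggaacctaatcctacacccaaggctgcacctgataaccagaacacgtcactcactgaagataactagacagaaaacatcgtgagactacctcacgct

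Of these 6 members, 4 held the ISRE core (Oas1a, Oas1c, Oas1g and Oas3), against 3.44% of 32851 promoter windows of this length. Oas3 had 1 match, from base -75 to -66 relative to the gene start. Oas1a, Oas1g and Oas1c had 2 matches each, overlapping by 4 bases, while 0.225% of all windows had 2 or more matches. In Oas1a the matches joined into the 16 bases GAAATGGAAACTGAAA, which ended 5 bases before the start. The same 16 bases stood in Oas1g, ending 3 bases before the start, and in Oas1c on the opposite strand, from base -114 to -99. Over all windows this run of bases occurred in those of 5 genes, namely Oas1a, Oas1c, Oas1g and the apolipoprotein genes Apol9a and Apol9b. GAS was matched in the Oas1a window alone among the members, and 8.3% of all windows held it. Oasl1 and Oasl2 held neither, which says only that these letters are not in these windows.

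The Oas1 genes that are not members show how the element varies between paralogs. Stretches of 45 bases were aligned to the one that holds the Oas1a matches, at chr5:120907518-120907562 for Oas1a (minus strand), chr5:120887604-120887648 for Oas1g (minus), chr5:120861357-120861401 for Oas1h (plus) and chr5:120847292-120847336 for Oas1f (plus).
Oas1a: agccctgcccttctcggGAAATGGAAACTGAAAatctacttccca
Oas1g: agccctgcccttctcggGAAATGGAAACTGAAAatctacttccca
Oas1h: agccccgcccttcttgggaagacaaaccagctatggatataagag
Oas1f: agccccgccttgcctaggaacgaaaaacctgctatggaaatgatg

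The 4 stretches share a similar start, and the ISRE core that follows it in Oas1a and Oas1g is not matched in Oas1h or Oas1f. Across the whole windows Oas1g was identical to Oas1a at 261 of 294 aligned bases (88.8%), against 64.4% for Oas1h and 68.1% for Oas1f. In the same free-end alignment to Oas1a the windows of Oas3, Oasl2, Oas1c and Oasl1 reached 61.0%, 61.8%, 64.9% and 65.0%, so the value of Oas1h lies within that range and the value of Oas1f above it by a few points.

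**Figure D1:**
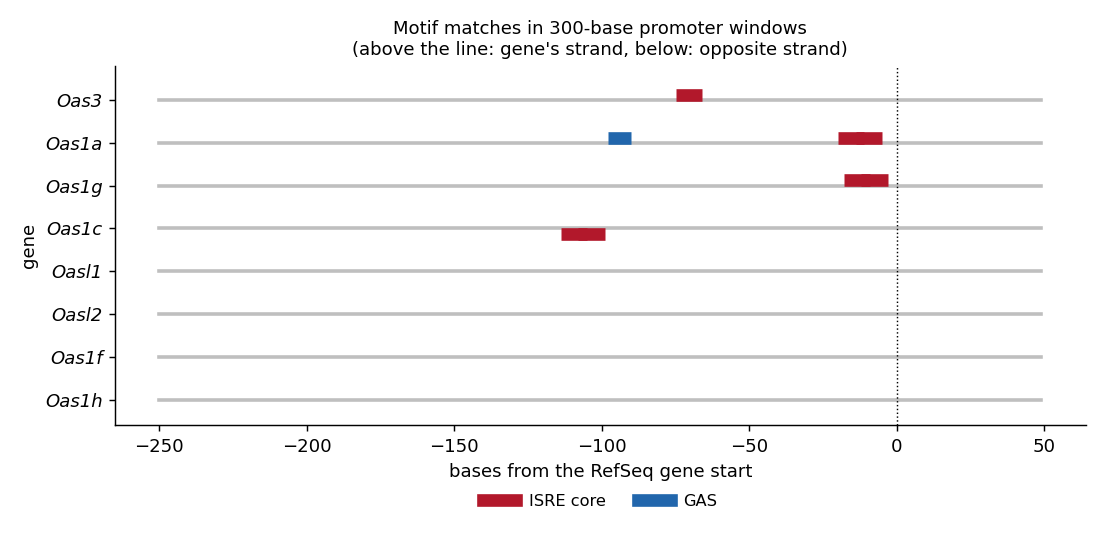
Positions of ISRE core (red) and GAS (blue) matches in the RefSeq promoter windows of 8 OAS genes, in bases from the gene start (horizontal axis), with matches on the gene's strand above the line and those on the opposite strand below it. Oas3, Oas1a, Oas1g and Oas1c hold 1 or 2 ISRE matches, and Oasl1, Oasl2, Oas1f and Oas1h hold none.

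Turning to the arrays, all 7 measured members were higher in each of the 3 ezrinT567A-GFP arrays than in GFP, as were 32.5% of all 18193 genes. At least 2-fold higher by the group mean were 5 of the 7, against 0.973% of all genes and 1.66% of the 9096 genes above the median level. The median member difference, ezrinT567A-GFP mean minus GFP, was 1.495 on the log2 scale (2.82-fold), and the array medians were 1.39, 1.78 and 1.37 in replicates 1, 2 and 3, with an SD of 0.23. The median of all genes was 0.03. The family was chosen on this contrast, so these shares are a description. In RNA from a whole culture, more cells expressing a gene and more RNA per cell cannot be told apart.

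The larger enzyme Oas3, which carries repeated OAS units and favours long double-stranded RNA, had the largest difference of the members. Its log2 level was 7.58, 7.35 and 7.65 in ezrinT567A-GFP replicates 1, 2 and 3, against 5.48 in GFP. The 3 arrays lay close together and far from GFP, with a range of 0.31 among them and a gap of 1.87 from the lowest of them to GFP. The difference of 2.05 is 4.13-fold and was the 18th highest of all genes. Oas2, the other enzyme with more than one OAS unit, differed less. It read 8.03, 8.38 and 8.07 in ezrinT567A-GFP, against 7.41 in GFP, a difference of 0.75 (1.68-fold). All 3 arrays were above GFP, and the gap to the lowest of them (0.61) exceeded their own range (0.35).

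The Oas1 genes encode the single-unit enzymes. Oas1a, a catalytically active form, read 9.87, 10.31 and 9.90 in ezrinT567A-GFP, against 8.53 in the single GFP array. All 3 arrays lay above GFP, as for 32.5% of all genes, and the difference was 1.495 (2.82-fold). Oas1a and Oas1g are close relatives, and whether the Oas1a probe set also binds Oas1g transcripts was not tested. Oas1c was dim in the control: it read 5.04, 4.76 and 4.99 in ezrinT567A-GFP, against 3.64 in GFP, below that array's median of 3.85. Its difference of 1.28 (2.43-fold) therefore starts from a level not shown to be above background. Oas1b is the flavivirus resistance gene of mice, whose product is truncated in most laboratory strains, and the RefSeq table of the C57BL/6J assembly classes it as a transcribed pseudogene. It read 5.82, 6.02 and 6.20 in ezrinT567A-GFP, against 5.52 in GFP, a difference of 0.49 (1.40-fold). Here the gap from GFP to the lowest ezrinT567A-GFP array (0.30) was smaller than the range among those arrays (0.37), which made Oas1b the exception among the 7 members. Over all genes, 12.5% had a gap above GFP larger than that range.

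The OAS-like genes were close to Oas3 in size of difference. Oasl1, which makes no oligoadenylates and in mice restrains translation of Irf7 mRNA, read 8.71, 8.57 and 8.26 in ezrinT567A-GFP, against 6.53 in GFP. Its difference of 1.98 (3.96-fold) ranked 21st. Oasl2, which has ubiquitin-like domains at its C terminus, read 8.93, 9.60 and 9.20 in ezrinT567A-GFP, against 7.38 in GFP. For both genes the 3 arrays lay above the single GFP array, as for 32.5% of all genes. The Oasl2 difference of 1.86 (3.64-fold) ranked 26th, although its arrays were the most spread of all members (range 0.67). Ordered by size of difference, Oas3, Oasl1 and Oasl2 each lay apart from the next by less than the SDs of their ezrinT567A-GFP arrays (0.16, 0.23 and 0.34). Oas3 exceeded Oasl2 by more than the SD of Oas3 but less than that of Oasl2. Oas1a and Oas1c lay apart by less than the larger of their SDs (0.25 and 0.15). Oasl2 exceeded Oas1a, the next in that order, by more than the SD of either gene. Of the 5 members at least 2-fold higher Oas1c was the nearest to that limit, and Oas2 was the nearest below it.

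**Figure D2:**
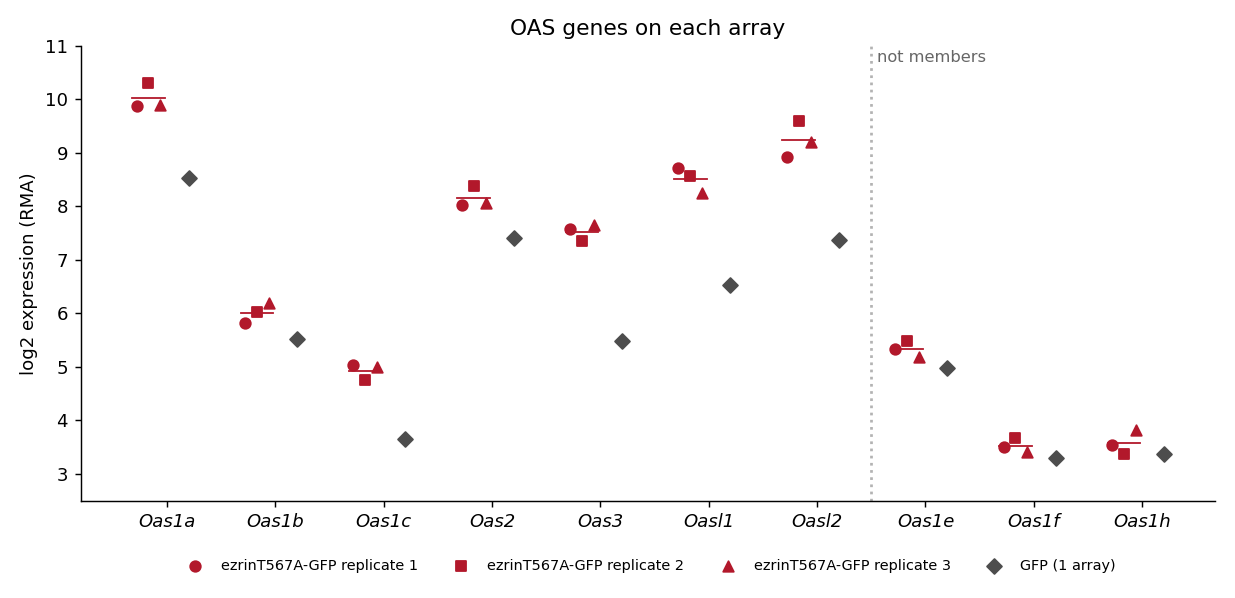
Log2 RMA expression (vertical axis) of 7 OAS members and, right of the dotted line, of 3 other Oas1 genes, with each ezrinT567A-GFP replicate in red, their mean as a line, and the single GFP array in grey. Every red point of the members lies above its grey diamond, with the widest gaps for Oas3 (2.05), Oasl1 (1.98) and Oasl2 (1.86) and the narrowest for Oas1b (0.49).

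The Oas1 genes outside the members were nearer to GFP. The members were picked with this contrast known, so that order is partly set by the choice. Oas1e (0.36) lay close to the member Oas1b (0.49, SD 0.19). Oas1e read 5.34, 5.48 and 5.18 in ezrinT567A-GFP, against 4.97 in GFP (difference 0.36, SE 0.17, limma adjusted p = 0.433). Oas1f read 3.50, 3.67 and 3.41 in ezrinT567A-GFP, against 3.30 in GFP (difference 0.22, SE 0.15, limma adjusted p = 0.574). Oas1h read 3.55, 3.37 and 3.82 in ezrinT567A-GFP, against 3.37 in GFP (difference 0.20, SE 0.20, limma adjusted p = 0.726). The levels of Oas1f and Oas1h stayed below the array medians of 3.85 to 3.89 in every array, at levels not shown to be above background. Both have a promoter window with no match to the ISRE core, as do Oasl1 and Oasl2, whose differences were 1.98 and 1.86. The promoter of Oas1e was not searched. A probe set that names both Oas1d and Oas1e read 1.97, 2.13 and 2.31 in ezrinT567A-GFP, against 1.96 in GFP, below the lower quartile of each array.

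The differences were also read in gene order. Within the Oas cluster the members, with differences of 0.49 to 2.05, were interspersed with Oas1e, Oas1f and Oas1h. The 3 measured genes on one side of the cluster, Ddx54 (0.25), Rasal1 (0.08) and Dtx1 (-0.24), and those on the other, Rph3a (-0.62), Ptpn11 (0.07) and Rpl6 (-0.06), had limma adjusted p between 0.247 and 0.878. Rph3a, a gene best known from neurons, was below GFP in all 3 arrays. Around the Oasl genes the differences were -0.23 for Ankrd13a, -0.33 for 2610524H06Rik, 0.09 for 4930519G04Rik, 0.36 for 2210016L21Rik, 0.02 for Sppl3 and 0.24 for Acads, with limma adjusted p between 0.346 and 0.973. The 608 genes of chromosome 5 above the median level had a median difference of -0.03.

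**Figure D3:**
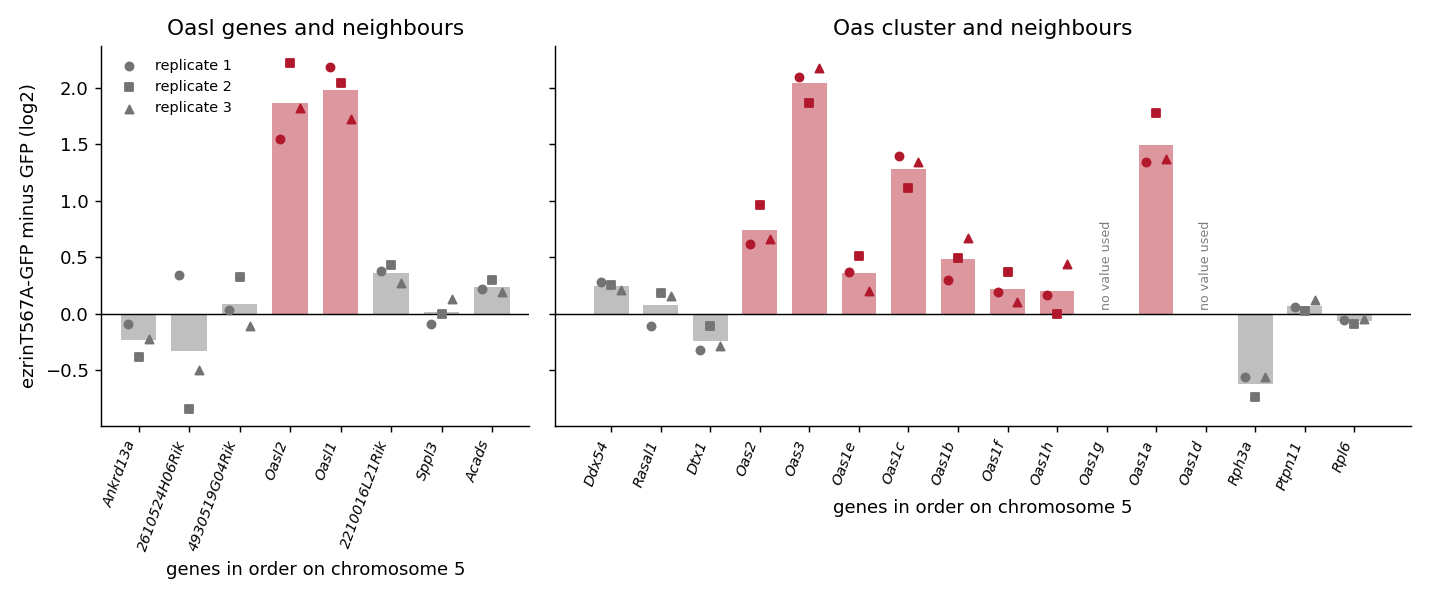
Difference from GFP on the log2 scale (vertical axis) for the Oasl genes, the Oas cluster and 3 measured genes on each side, in their order on chromosome 5 (horizontal axis, not to scale), with bars for the mean of the 3 ezrinT567A-GFP arrays and points for each array. OAS genes are red and neighbours grey; Oas3, Oasl1 and Oasl2 stand near 2 while the flanking genes lie between -0.62 and 0.36.

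The replicates did not rank the members alike. Replicate 2 was the highest array for Oas1a, Oas2 and Oasl2, replicate 3 for Oas1b and Oas3, and replicate 1 for Oas1c and Oasl1. Replicate 2 minus replicate 1 was 0.67 for Oasl2, 0.44 for Oas1a, 0.35 for Oas2 and 0.19 for Oas1b, but -0.14 for Oasl1, -0.23 for Oas3 and -0.28 for Oas1c. Control signals also varied between these arrays: the hybridization spike-ins averaged 10.13, 11.11 and 10.38 in ezrinT567A-GFP replicates 1, 2 and 3, against 9.32 in GFP, and 18S rRNA averaged 7.65, 11.35 and 7.76, against 9.09 in GFP. When the spike-in mean entered the fit as a covariate, a choice made once the data had been seen, the median member difference was 1.07, and the differences were 0.92 for Oas1a, 1.07 for Oasl2, 0.29 for Oas2 and 2.38 for Oas3. All 7 stayed above 0, and 4 instead of 5 were at least 2-fold higher. The slope of this covariate comes from the 3 ezrinT567A-GFP arrays alone. GFP lay below their spike-in values, so the adjusted differences are extrapolations.

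The test across all genes is the background for the genes beside the family. An adjusted p under 0.05 in limma was reached by 0 of 18193 genes, while an unadjusted p under 0.05 was found for 1357 genes on the higher side (7.46%) and 1183 on the lower (6.5%). The fit lends the lone GFP array the spread of the other 3, and an exact permutation over 4 arrays cannot go below p = 0.25. The count of 0 was not stable: limma called 34 genes after quantile normalization and 30 with centred arrays.

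Downstream of the OAS enzymes, 3 genes of the oligoadenylate pathway were measured, and their differences were small. Abce1, a ribosome recycling factor, read 9.98, 9.94 and 10.03 in ezrinT567A-GFP, against 9.84 in GFP (difference 0.15, SE 0.09, limma adjusted p = 0.562). Pde12, a phosphodiesterase that degrades oligoadenylates, was at -0.19 (SE 0.14), below GFP in all 3 arrays. Akap7, whose protein can also cleave them, was at -0.06 (SE 0.25). Of these genes 0 were called by limma, and 0 reached an unadjusted p under 0.05. The dimmest Abce1 probe set disagreed with the others in sign (-0.38).

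Of 10 measured sensors and adaptors of foreign nucleic acid, 9 were higher by the mean, 7 of them in all 3 arrays, and 4 were at least 2-fold higher (median 0.70). These were Dhx58, the LGP2 helicase, at 2.58 (SE 0.47), Zbp1, which binds Z-form nucleic acid, at 2.20 (SE 0.43), the endosomal receptor Tlr3 at 1.73 (SE 0.42), and Ifih1, the MDA5 sensor of long double-stranded RNA, at 1.53 (SE 0.19). Other probe sets were as low as 0.46 for Dhx58, 1.38 for Zbp1 and 1.05 for Tlr3. The kinase Eif2ak2, the other classic enzyme switched on by double-stranded RNA, was at 0.07 (SE 0.30), with 1 of 3 arrays below GFP and other probe sets up to 0.48. The DNA sensor Cgas, whose nucleotidyltransferase fold resembles that of OAS, was at -0.04 (SE 0.12), and the adaptor Mavs was at 0.07 (SE 0.22), with another probe set at 0.09 for Cgas and at 0.46 for Mavs. Of the 10, limma called 0 (adjusted p between 0.187 and 0.944), and 6 reached an unadjusted p under 0.05, all on the higher side. Over all genes, 32.5% were above GFP in all 3 arrays, 0.973% were at least 2-fold higher and 7.46% had such a p on the higher side. This list was picked with earlier results of these arrays known, so its counts are a description and no test of the list.

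Among 11 measured genes of interferon signalling, 9 exceeded GFP in each array and 3 were at least 2-fold higher (median 0.62). Usp18, a protease that shuts down receptor signalling, was at 2.43 (SE 0.24), Stat2 at 2.003 (SE 0.52) and Irf7, a driver of interferon genes, at 1.66 (SE 0.28). Irf9, the DNA-binding partner of STAT2, was at 0.66 (SE 0.13). The receptor chains Ifnar1 (0.62, SE 0.11) and Ifnar2 (0.68, SE 0.12) were higher by similar amounts, whereas the inhibitor Socs1 was at -0.19 (SE 0.24) and Irf3 at -0.04 (SE 0.19). Other probe sets of these genes disagreed in size: the lowest was at 0.05 for Ifnar1 and 0.27 for Ifnar2, and the highest at 0.55 for Irf3. Of the 11, limma called 0 (adjusted p between 0.187 and 0.947), and 8 reached an unadjusted p under 0.05, all on the higher side. The shares of all genes were 32.5% above GFP in all 3 arrays, 0.973% at least 2-fold higher and 7.46% with such a p on the higher side. The signalling list was likewise picked with earlier results known, so these counts too are a description. Replicate 2 exceeded replicate 1 by 1.29 for Stat2, 1.15 for Dhx58, 1.01 for Tlr3 and 0.87 for Zbp1, each more than for any OAS member, as a description of these 2 arrays.

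The interferon genes themselves were dim. Ifnb1 read 4.04, 4.52 and 4.08 in ezrinT567A-GFP, against 3.58 in GFP (difference 0.63, SE 0.23), so all 3 arrays were above GFP, which lay below its array's median. Ifna4 was at 0.42 (SE 0.14), Ifng at 0.20 (SE 0.12), Ifna1 at 0.12 (SE 0.12) and Ifna2 at -0.13 (SE 0.15). Of these 5, limma called 0 (adjusted p between 0.323 and 0.774) and 1, Ifna4, reached an unadjusted p under 0.05, as did 7.46% of all genes on the higher side.

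**Figure D4:**
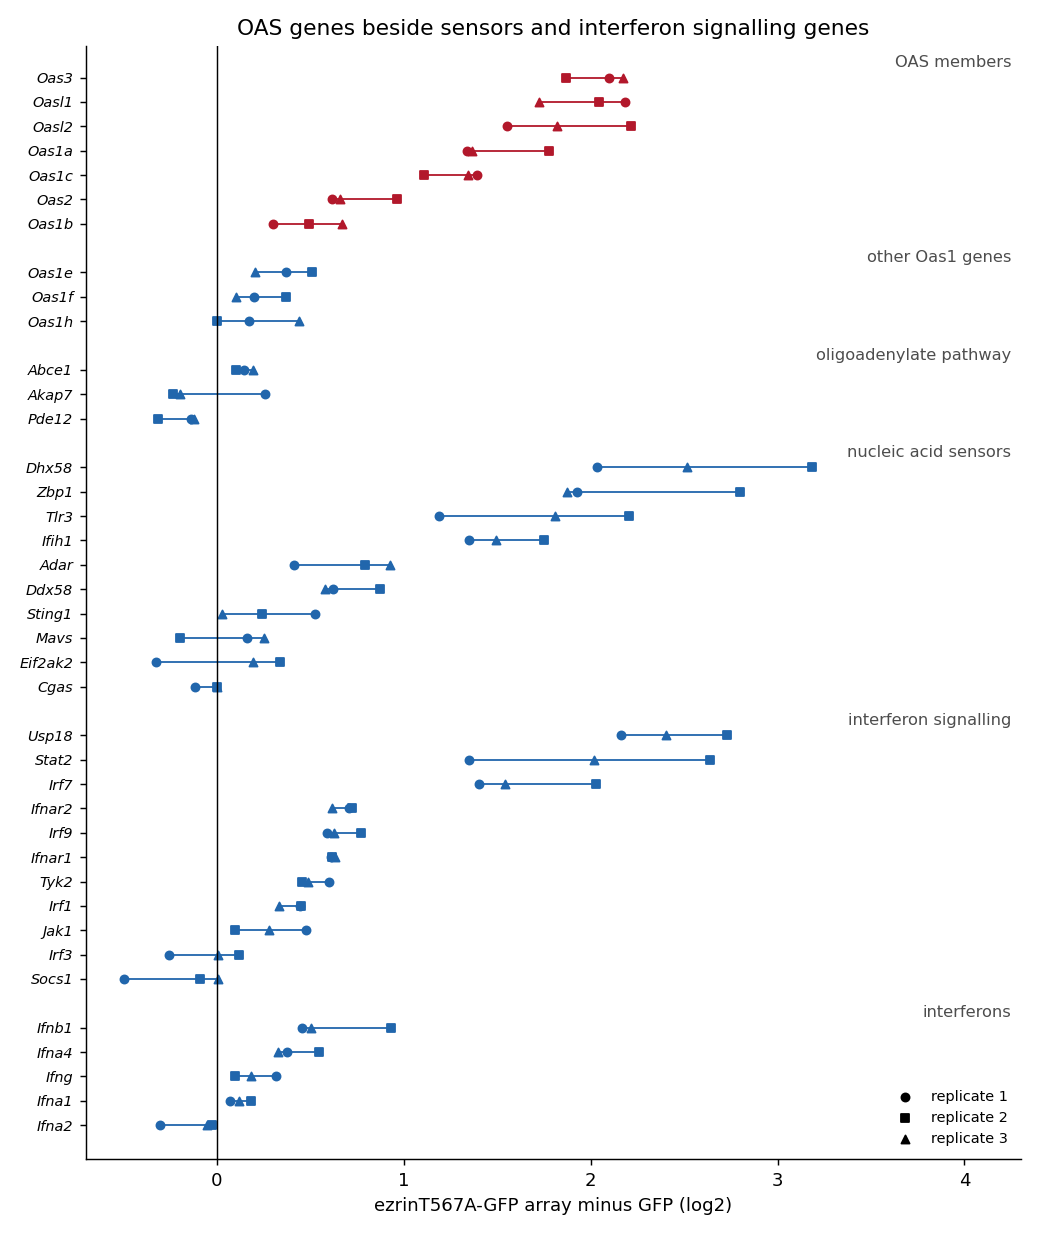
Difference from GFP on the log2 scale (horizontal axis) of each ezrinT567A-GFP array for the 7 OAS members (red) and for the listed genes beside them (blue), with a line over the range of the 3 arrays. By their means Oas3, Oasl1 and Oasl2 lie near 2, as do Stat2 (2.003) and Zbp1 (2.20), while Abce1, Akap7, Pde12, Cgas and Mavs lie near 0. The arrays of Stat2 run from 1.35 to 2.64 and those of Zbp1 from 1.88 to 2.80.

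Genes with the pattern most like the family were sought by the root mean square distance between their 3 differences from GFP and the members' array medians, among 8877 named genes above the median level. Of the members Oas1b lay farthest from that profile (1.05). The profile is built from the members, and Oas1a is itself the median in replicates 2 and 3, so its distance (0.03) is fixed by that construction. The nearest other genes were Ifi35 (distance 0.06), the small heat shock gene Hspb2 (0.07), Ifih1 (0.08), the guanylate-binding protein gene Gbp3 (0.09), the matrix proteoglycan gene Ogn (0.13), the sterol reductase gene Dhcr7 (0.13), the fucosidase gene Fuca2 (0.14) and the mitochondrial nucleotide kinase gene Cmpk2 (0.14). Their differences ran from 1.40 to 1.65, with limma adjusted p between 0.179 and 0.225, and the distance rests on 3 arrays that share 1 GFP array. Of the 524 measured genes with an ISRE core in a promoter window, 32 were at least 2-fold higher (6.11%). Among all 14452 measured genes with a window, 136 were (0.941%). Without the OAS members the share was 29 of 521 (5.57%). The element was searched because of this family, itself picked on this contrast, so these shares are a description. Their cause was not tested.

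Markers of other cell types were read beside these values. Of 6 epithelial markers, 5 were below GFP in all 3 ezrinT567A-GFP arrays, a share not counted over all genes. In limma the same 5 had an unadjusted p under 0.05 on the lower side, as had 6.5% of all genes, and 0 were called after adjustment. The marker lists were also picked with earlier results of these arrays known. The summed linear signal of the 6 was 95.8 to 121 in ezrinT567A-GFP, against 327 in GFP, where most of it came from Krt14 and Krt5. Cdh1 (2.66 to 4.21), Krt8 (3.73 to 4.24) and Krt18 (2.25 to 2.33) read near or below the array medians. Krt14 was at -2.80 by its brightest probe set, with others up to 0.08, and Krt5, with 1 probe set, was at -2.05. Krt8 was at -0.42, with another probe set at 0.32. Macrophage markers summed to 4115 to 5114 in ezrinT567A-GFP, against 4056 in GFP, nearly all of it Csf1r, while Ptprc, Adgre1 and Itgam read below 3 on the log2 scale on all arrays. Cd68 (3.81 to 4.13) and Fcgr1 (3.68 to 3.91) read near the array medians. Cd14 was brighter (7.16 to 8.18) and above GFP in all 3 arrays (difference 0.94), whereas Mrc1 was below GFP in all 3 (-1.48). Plasmacytoid and lymphoid markers summed to 912 to 1332 in ezrinT567A-GFP, against 505 in GFP, mostly Bst2, which is itself interferon-induced (difference 1.24). Siglech, a marker of plasmacytoid dendritic cells, was below the array median everywhere (3.59 to 3.75), as was Ncr1 (2.26 to 2.48). Tcf4 (5.87 to 6.46) and Cd3e (4.24 to 4.52) read above the array medians, and Cd79a (3.86 to 4.43) read near or above them. These 3 genes were above GFP in all 3 arrays, as were 32.5% of all genes. Tcf4 was at 0.41, with other probe sets from -0.18 to 0.48. The part of the epithelial markers in the OAS differences was not tested.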

How the data were processed

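Gene expression was measured on 4 one-colour Affymetrix arrays. The authors deposited log2 expression values, 1 per probe set, made with RMA per the submitters' processing notes. The log2 scale was read from their range (1.18 to 13.7), and RMA forces the arrays to nearly one distribution. Of 45101 probe sets, 34958 had 1 gene symbol in the platform annotation, 932 had several and 9211 were not listed, and 34754 gene IDs matched the GRCm38.p6 gene table. Controls and probe sets without exactly 1 gene were left out, and each gene took its probe set with the highest mean over the arrays. Groups came from the over-expression label. The fit over all genes used limma 3.58.1 (R 4.3.3) with eBayes and a mean trend, 2 residual degrees of freedom and a prior worth 2.23. Two-sided p-values were adjusted by the Benjamini-Hochberg method at a threshold of 0.05. SE is limma's moderated standard error. Summed marker signals are sums of the linear values behind the log2 levels. Promoters were searched in Python 3.11.15 and aligned with Biopython 1.88. Scripts were tested on simulated data. Named genes were all members, the pathway lists, the nearest 8 genes and 3 measured neighbours on each side. The members and lists were chosen with earlier results of these data known. Some listed genes are not reported here. Alternatives were other array normalizations, other probe set choices, filters, priors, thresholds and the omission of each replicate, and a spike-in covariate was chosen once the data had been seen.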

Additional observations from a re-analysis of the deposited data

How the results depend on the processing

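No paired analysis was possible because the GFP group has 1 array and its label carries no replicate number. The member values moved little: all 48 member differences recomputed under quantile normalization, centred arrays, averaged probe sets, without the _s_at, _x_at and _a_at kinds (6 members) and without each replicate stayed above 0 (averaging changes none, as each has 1 probe set), between 0.40 and 2.13, and 0 of them moved by more than the SD of the ezrinT567A-GFP arrays. The median member difference was 1.37 to 1.57 when each replicate was left out, and 1.07 with the spike-in covariate, which moved 5 of 7 members by more than that SD and had 1 residual degree of freedom; the cause was not tested. The count of genes past the limma threshold was 34 after quantile normalization, 30 with centred arrays, 6 with averaged probe sets, 3 among genes above the median level, 9 with a robust prior and 6 at an adjusted p under 0.10, and 0 under the other alternatives run. The median of the oligoadenylate pathway list, -0.06, changed sign without replicate 2 (0.032) or 3 (0.01), and without each replicate it ran from -0.21 to 0.032. The median of interferon signalling, 0.62, was 0.41 with averaged probe sets, and that of the interferons, 0.20, was 0.31 without the _s_at, _x_at and _a_at kinds. In place of the 5 members at least 2-fold higher, a 1.5-fold minimum counted 6, and the spike-in covariate left 4, with Oas1a at 0.92. Of the 8 nearest genes 6 were shared after quantile normalization. Signal over background was not measured, so the dim Oas1c, Oas1f and Oas1h have uncertain sizes.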

Other observations

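Csf1r, the receptor of macrophage colony-stimulating factor, was bright on every array although the macrophage markers Ptprc, Adgre1 and Itgam were dim. Its brightest probe set read 11.89, 12.22 and 12.08 in ezrinT567A-GFP replicates 1, 2 and 3, against 11.91 in GFP, a difference of 0.15 (SE 0.15). Cd14, a co-receptor for bacterial lipopolysaccharide and a listed macrophage marker that was not dim, read 8.12, 8.18 and 8.01 in ezrinT567A-GFP, against 7.16 in GFP. The mannose receptor gene Mrc1 went the other way, with 2.52, 2.63 and 2.69 in ezrinT567A-GFP, against 4.09 in GFP. Of these 3 genes, chosen with their values known, limma called 0.

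Probe sets without a listed gene hold few of the differences. At least 2-fold higher with all 3 arrays above GFP were 11 of 9160 (0.12%), against 255 of 34945 probe sets with 1 gene (0.73%). At least 2-fold lower with all 3 arrays below GFP were 10 (0.109%), against 262 (0.75%). The signal levels of the 2 sets were not compared.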
